A study of Mus musculus with 8 samples.

Results

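The mitochondrial respiratory chain was followed through its nuclear genes in cultured CD8+ dendritic cells of the mouse spleen. Genes were taken by symbol, namely those starting with Nduf, Uqcr, Cox4 to Cox8 or Atp5, and Sdha to Sdhd, wherever a probe set of the array carried exactly 1 gene symbol. This gave 98 probe sets of 71 genes, out of 8251 genes measured. Where a gene had more than 1 probe set, as 20 of the 71 did, the one with the highest mean over all arrays stood for it. The 71 genes were 31 of complex I, 4 of complex II, 7 of complex III, 15 of complex IV and 14 of the ATP synthase. They include 3 that are not structural subunits by their known role, Ndufaf1 and Ndufaf4, which act in complex I assembly, and Cox7a2l, which joins complexes III and IV into supercomplexes.

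All groups used cells from spleens of 60-day-old DBA/2J females that had received 10 µg of Flt3-L over a 9-day treatment, a cytokine that expands dendritic cells in the living animal, so the untreated cultures carry that treatment too. The purified cells were kept in medium or in medium with mouse IFN-γ at 200 U/ml. RNA was taken after 4 or after 16 hours, which gives the groups medium 4 h, medium 16 h, IFN-γ 4 h and IFN-γ 16 h with 2 Affymetrix MG-U74Av2 arrays each, numbered 1 and 2. The deposited values are signal intensities per probe set, used here as log2. No source says whether the arrays of a group stand for separate mice, pools or cultures, so a p-value here reflects only how far these arrays differ from each other, possibly for technical reasons. Cells that had been purified freshly and not cultured are not among these groups, so a change with time is a change between 4 and 16 hours of culture.

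Complex I takes electrons from NADH and complex II from succinate, complex III passes them from ubiquinol to cytochrome c, and complex IV hands them to oxygen. The proton gradient that complexes I, III and IV build drives the ATP synthase. Dendritic cells are known to lean on this machinery at rest and to shift towards glycolysis when activated through Toll-like receptors, and IFN-γ is known in macrophages to alter mitochondrial metabolism through products such as itaconate. The design allows the question of whether IFN-γ, or the time in culture, moved the transcripts of the chain.

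The arrays as a whole were close in level: the median over the 8251 genes lay between 6.13 and 6.16 on every array. The 15 antisense control probe sets, which measure unspecific signal, had medians from 5.49 to 5.93. Of 11 measured CD8+ dendritic cell markers 9 lay above this level, namely Itgax, Cd8a, Irf8, Batf3, Ly75, Cd24a, Flt3, H2-Aa and Cd74. Xcr1 and Itgae did not. The summed linear intensity of the 11 ranged from 12900 to 14163 over the arrays. Bright genes weigh most in such a sum, so sums of different lists are not compared. Of these 11 markers 4 were called lower at 16 than at 4 hours over both treatments and 0 higher, namely Irf8, Batf3, Flt3 and Ly75. Of 12 macrophage markers 8 lay above the antisense level and Mrc1, Marco, Spic and Mertk did not. Their summed intensity rose from between 1319 and 1788 at 4 hours to between 3311 and 5349 at 16 hours. The 5 B cell markers summed to between 1932 and 2588 at 4 hours and to between 2603 and 3046 at 16 hours. Over the 8 arrays 6 neutrophil markers summed to between 3260 and 4215, and 4 T cell markers to between 939 and 1145. Sums of 3 plasmacytoid dendritic cell and 3 NK cell markers were between 1141 and 1606 and between 218 and 321. For Actb, signal at the 3' end over that at the 5' end, a sign of RNA and labelling quality, was 2.04 and 2.20 in medium 4 h and between 1.47 and 1.68 on the other 6 arrays. For Gapdh this ratio was 1.14 and 1.31 in medium 4 h and between 0.83 and 0.92 on the other 6. The medium 4 h arrays enter the IFN-γ comparison at 4 hours and the time comparison in medium. Whether the ratios matter there was not tested.

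Most of the chain was detected by the brightest probe set of each gene. The mean of 60 of the 71 genes lay above the antisense level, and each of these 60 was above it on all 8 arrays. The other 11 were Ndufc2, Ndufa12, Ndufaf4, Ndufs4, Sdha, Cox6b2, Cox5a, Cox8a, Cox7a1, Atp5pb and Atp5j2. Of these, Sdha exceeded its array's control median on the 4 arrays numbered 2 and Cox6b2 on the 4 numbered 1, and the other 9 on none. Sdha and Cox5a are known as required parts of their complexes, and their probe sets were above unspecific signal on 4 and on 0 of the 8 arrays. Near that signal a difference may be understated. Taking the brightest probe set favours detection. Other probe sets lay below the antisense level for some genes, as for Atp5g1 (mean 5.13) and Ndufb7 (3.15), and above it for others, as for Atp5c1 (8.46). Probe sets differ in how they bind, and the levels of different genes are therefore not ranked here.

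**Figure D1:**
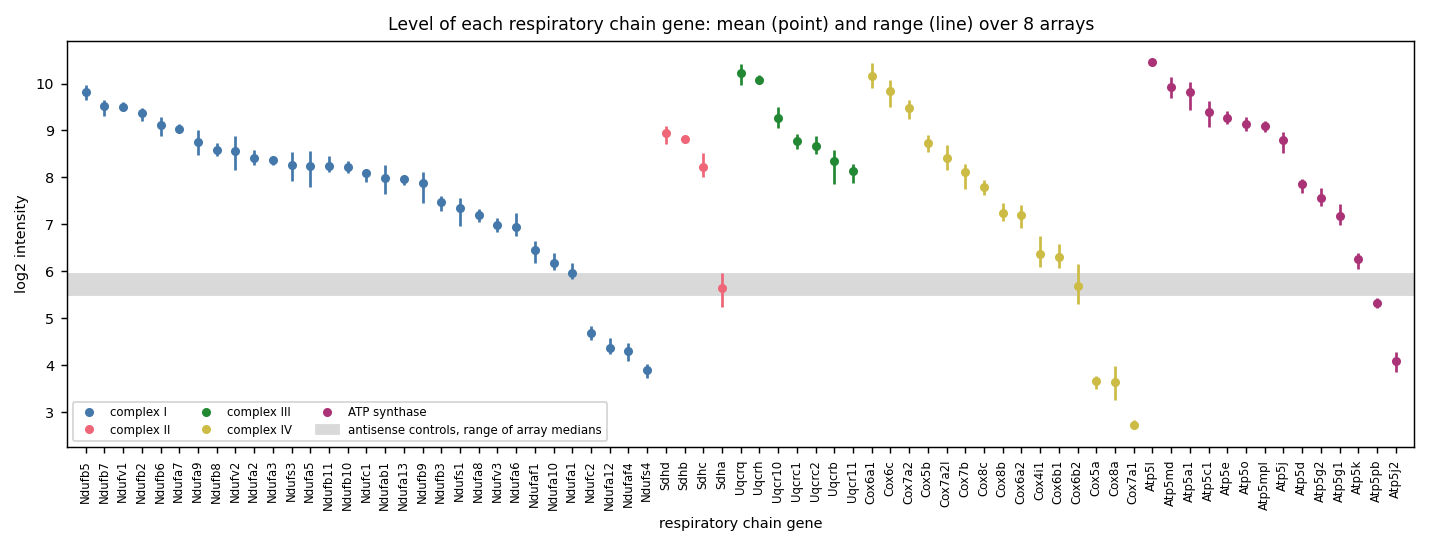
Mean log2 intensity (points) and range over the 8 arrays (lines) of each of the 71 genes, by complex; the grey band is the range of the array medians of the antisense controls, 5.49 to 5.93. Genes are ordered by signal within a complex for legibility only, and 60 of the 71 lie above the controls.

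The values of some genes show the range of the signals. Atp5l, subunit g of the ATP synthase, measured 10.48 and 10.37 in medium 4 h, 10.45 and 10.42 in IFN-γ 4 h, 10.47 and 10.51 in medium 16 h, and 10.52 and 10.50 in IFN-γ 16 h. Its arrays spanned little, with IFN-γ 16 h just above both 4-hour groups. Sdhd, a membrane anchor of complex II, measured 8.97 and 9.06 in medium 4 h, 8.97 and 9.09 in IFN-γ 4 h, 8.71 and 9.05 in medium 16 h, and 8.74 and 9.06 in IFN-γ 16 h. In every group of Sdhd the array numbered 1 was the lower. Sdha, the flavoprotein that oxidises succinate, split the same way, with 5.56, 5.55, 5.41 and 5.25 on the arrays numbered 1 and 5.81, 5.73, 5.97 and 5.84 on those numbered 2. Ndufs4, a complex I subunit whose loss causes encephalopathy in mice, stayed between 3.72 and 4.03, and Atp5j2, subunit f of the ATP synthase, between 3.86 and 4.29, both below the controls.

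Isoforms known for other tissues gave mixed signals. Cox8c, the testis form of subunit 8, lay between 7.63 and 7.95, and Cox8b, the muscle form, between 7.08 and 7.46. Cox6a2, the heart and muscle form of subunit 6a, lay between 6.92 and 7.41, above the controls on every array. Cox7a1, another muscle form, lay between 2.65 and 2.83, far below them, and Cox6b2, a testis form, between 5.31 and 6.16. The ubiquitous partner Cox6a1 measured 10.43 and 10.23 in medium 4 h, 10.21 and 10.14 in IFN-γ 4 h, 10.00 and 10.10 in medium 16 h, and 9.90 and 10.24 in IFN-γ 16 h. These values are those of the brightest probe set of each gene. The second probe sets of Cox8c and Cox8b had means of 3.21 and 3.07, and the other probe sets of Cox6b2 3.26 and 4.92, all below the controls. A signal above the controls does not by itself show that these restricted isoforms were transcribed, since specificity of the probes was not tested.

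Nuclear genes of the chain are known to share promoter elements, which are shown here for a few of them. RefSeq promoters of assembly GRCm38.p6, from 250 bases before to 50 after each start, were on hand for 58 of the 71 genes. NRF1, GABPA, YY1 and ERR are transcription factors known for nuclear mitochondrial genes, and the letters GCGCATGC, CCGGAAG, AAGATGGC and TCAAGGTCA were searched for them on both strands. The NRF1 letters and their reverse complement share 6 bases, so 1 stretch can match on both strands. GCGCATGC was found for 10 of the 58 genes (17.2%), beside 5.30% of 6572 measured genes with a promoter and 2.71% of all 32851 promoters. CCGGAAG was found for 16 (27.6%, beside 17.1% and 8.86%), AAGATGGC for 8 (13.8%, beside 4.61% and 2.75%) and TCAAGGTCA for Sdhd alone (1.72%, beside 0.304% and 0.423%). At least 1 of the first 3 motifs was found for 28 of the 58 genes (48.3%), beside 24.4% of the measured genes. These are matches of letters and not evidence of binding.

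One window from each complex shows the NRF1 match, with 10 bases on either side and the match in capitals, as GCGCATGC or its reverse complement. They are read 5′ to 3′ on the gene's strand, at chr2:36049329-36049356 (Ndufa8, minus strand), chr4:140961207-140961234 (Sdhb, plus), chr10:80406808-80406835 (Uqcr11, minus), chr5:115349103-115349130 (Cox6a1, minus) and chr15:102671072-102671099 (Atp5g2, minus).
Ndufa8: cgctggagacGCATGCGCagatggtacc
Sdhb: agcccagtggGCATGCGCcctacgggcc
Uqcr11: tcgccttcacGCATGCGCtatacgtctg
Cox6a1: caggaacgggGCGCATGCgcgctctcgc
Atp5g2: ggctccggccGCGCATGCgcagagcctt
The YY1 letters lay within the first bases after the start in several genes, as in Ndufa3 and Ndufa9, where the first base of the match was 22 and 29 bases from the start, while in Atp5j it was at -88. The matches, in capitals, are at chr7:3617385-3617412 (Ndufa3, plus strand), chr6:126849098-126849125 (Ndufa9, minus) and chr16:84835047-84835074 (Atp5j, minus).
Ndufa3: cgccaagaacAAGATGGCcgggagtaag
Ndufa9: attgtgggagAAGATGGCggccgccgtc
Atp5j: aagtgtaggaAAGATGGCggagtcttag

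IFN-γ moved none of the 71 genes past the threshold, an adjusted p under 0.05 (limma, Benjamini-Hochberg over all 12422 probe sets), at either time. At 4 hours 0 of 71 were called, beside 0.279% of the 8251 genes (each also by its brightest probe set), and at 16 hours 0 of 71 beside 0.303%. All 23 genes of the series called at 4 hours were higher with IFN-γ. In a model that takes the IFN-γ effect over both times it was 0 of 71 beside 0.691%, and for the difference between the effects at 16 and at 4 hours 0 of 71 beside 0%. With the array number as a block the count was again 0 of 71 in each, beside 1.08% of all genes at 4 hours, 0.957% at 16 hours, 1.62% over both times and 0.109% for the difference of the effects. At an unadjusted p under 0.05 the counts were 0 at 4 hours (beside 3.67%), 0 at 16 hours (beside 3.75%), 0 for the difference of the effects (beside 2.19%) and 1 in the model over both times (beside 4.98%).

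The differences were small and centred near 0. The median log2 difference of the 71 genes was 0.0066 at 4 hours (all genes -0.0089) and 0.024 at 16 hours (all genes -0.0025). Single genes ranged from -0.22 to 0.16 at 4 hours and from -0.19 to 0.20 at 16 hours, with standard errors from 0.10 to 0.30. These errors come from 1 spread per gene shared by all 4 groups. Array 2 minus array 1 had an SD over all probe sets of 0.17 (medium) and 0.18 (IFN-γ) at 4 hours. At 16 hours the SD was 0.24 and 0.31, so errors and intervals at 16 hours may be too small. At 4 hours the 95% interval lay within a 1.5-fold change either way for 69 of the 71 genes and at 16 hours for 67, and within 2-fold for all 71 at both times. In the model over both times it lay within 1.5-fold for all 71. Among the 60 genes above the antisense level, that held for 60 at 4 hours, 59 at 16 hours and 60 over both. For the other 11, whose signal was at or below that level, a narrow interval may understate a difference. At 4 hours the IFN-γ arrays lay wholly below the medium arrays in 8 genes (11.3%, beside 19.2% of all genes) and wholly above them in 9 (12.7%, beside 15.0%). At 16 hours they lay wholly below in 4 (5.63%, beside 9.60%) and wholly above in 5 (7.04%, beside 9.59%). All 4 shares were under those of all genes, some only by little, and this was not tested.

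**Figure D2:**
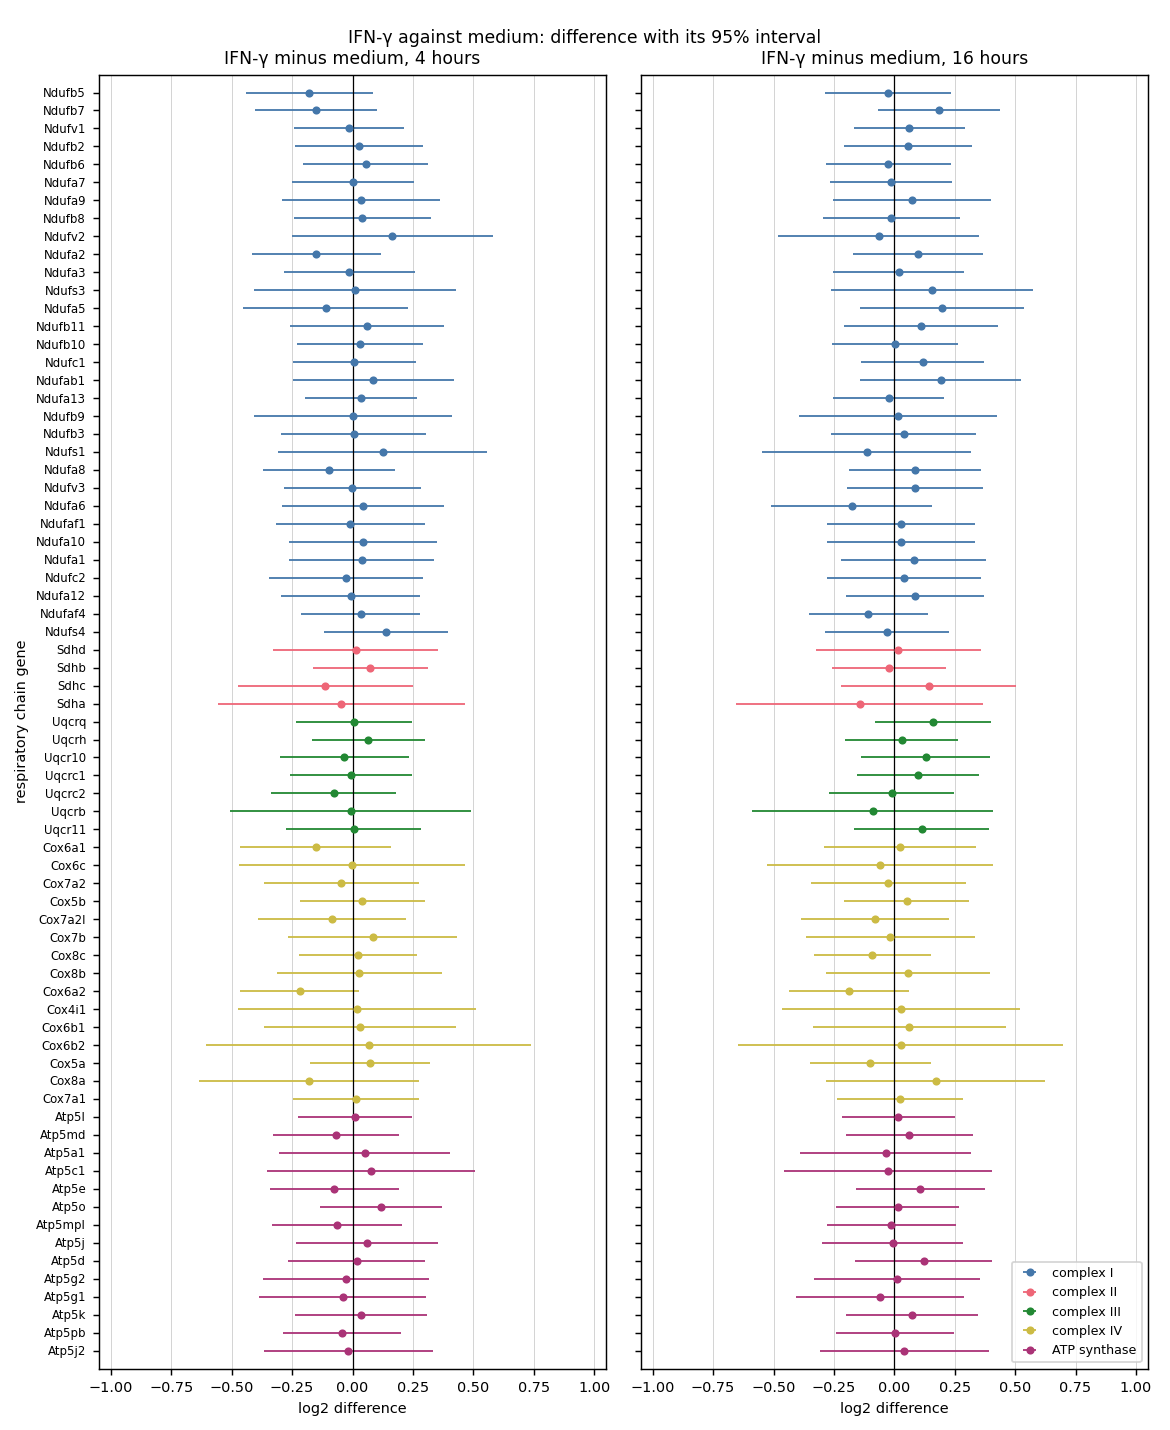
Log2 difference between IFN-γ and medium (points) with its 95% interval (lines) for each of the 71 genes, at 4 hours on the left and 16 hours on the right, coloured by complex. The points lie between -0.22 and 0.20.

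In complex IV, Cox6a2 measured 7.22 and 7.21 in medium 4 h and 6.92 and 7.07 in IFN-γ 4 h, then 7.41 and 7.37 in medium 16 h and 7.26 and 7.15 in IFN-γ 16 h. The IFN-γ arrays were below the medium arrays at both times, and this was the gene with p under 0.05 in the model over both times. The differences were -0.22 (SE 0.11, 95% interval -0.46 to 0.03) at 4 hours and -0.19 (SE 0.11, -0.43 to 0.06) at 16 hours, and -0.20 (SE 0.07, limma adjusted p = 0.737) over both. That adjusted p was 0.326 with the block.

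In complex I, Ndufb7, a subunit of the membrane arm, went opposite ways. It measured 9.59 and 9.64 in medium 4 h against 9.45 and 9.48 in IFN-γ 4 h, and 9.48 and 9.31 in medium 16 h against 9.63 and 9.53 in IFN-γ 16 h. The groups did not overlap at either time, with differences of -0.15 (SE 0.11) and 0.18 (SE 0.11). The difference between them, 0.34 (SE 0.16, 95% interval -0.02 to 0.69), did not pass the test. Ndufb5, another membrane arm subunit, measured 9.92 and 9.97 in medium 4 h and 9.73 and 9.80 in IFN-γ 4 h, a difference of -0.18 (SE 0.12, 95% interval -0.44 to 0.08).

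In the other complexes the gene with the smallest p showed differences of the same order. In complex II, Sdhc, a membrane anchor, measured 8.30 and 8.32 in medium 4 h against 8.21 and 8.18 in IFN-γ 4 h, and 8.01 and 8.26 in medium 16 h against 8.04 and 8.52 in IFN-γ 16 h. It was lower with IFN-γ at 4 hours and its arrays overlapped at 16 hours, where they were spread widely. It differed by -0.11 (SE 0.16) at 4 hours and by 0.14 (SE 0.16) at 16 hours. In complex III, the core protein Uqcrc2 measured 8.89 and 8.71 in medium 4 h and 8.72 and 8.72 in IFN-γ 4 h, a difference of -0.08 (SE 0.11) with overlap. The small subunit Uqcrq differed by 0.16 (SE 0.11) at 16 hours, with both IFN-γ arrays above both medium arrays. In the ATP synthase, Atp5o, the stalk protein OSCP, measured 9.17 and 9.14 in medium 4 h and 9.26 and 9.28 in IFN-γ 4 h, a difference of 0.12 (SE 0.11) without overlap. Atp5d, the delta subunit, measured 7.91 and 7.67 in medium 16 h and 7.91 and 7.92 in IFN-γ 16 h, a difference of 0.12 (SE 0.13) with overlap. None of these intervals excluded 0.

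Between 4 and 16 hours of culture 7 of the 71 genes changed in the model that takes the time effect over both treatments (9.86%, beside 13.3% of all genes). Lower at 16 hours were 6 (8.45%, beside 9.24%), namely Uqcrq, Ndufab1, Ndufa5, Atp5md, Ndufb6 and Uqcr10, with Ndufb6 down the least and Ndufa5 the most. Ndufb6 fell by 17.7% and Ndufa5 fell by 27.1%. Higher was 1 (1.41%, beside 4.04%), Cox7a2l, by 24.1%. The lower calls all fell among the 60 genes above the antisense level (10.0%, beside 13.7% of such genes). The share called lower was near that of all genes. Under quantile normalization 4 were lower (beside 8.17% of all genes) and 2 higher (beside 4.67%), and under median centring 7 were lower (beside 10.4%) and 0 higher (beside 3.22%).

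**Figure D3:**
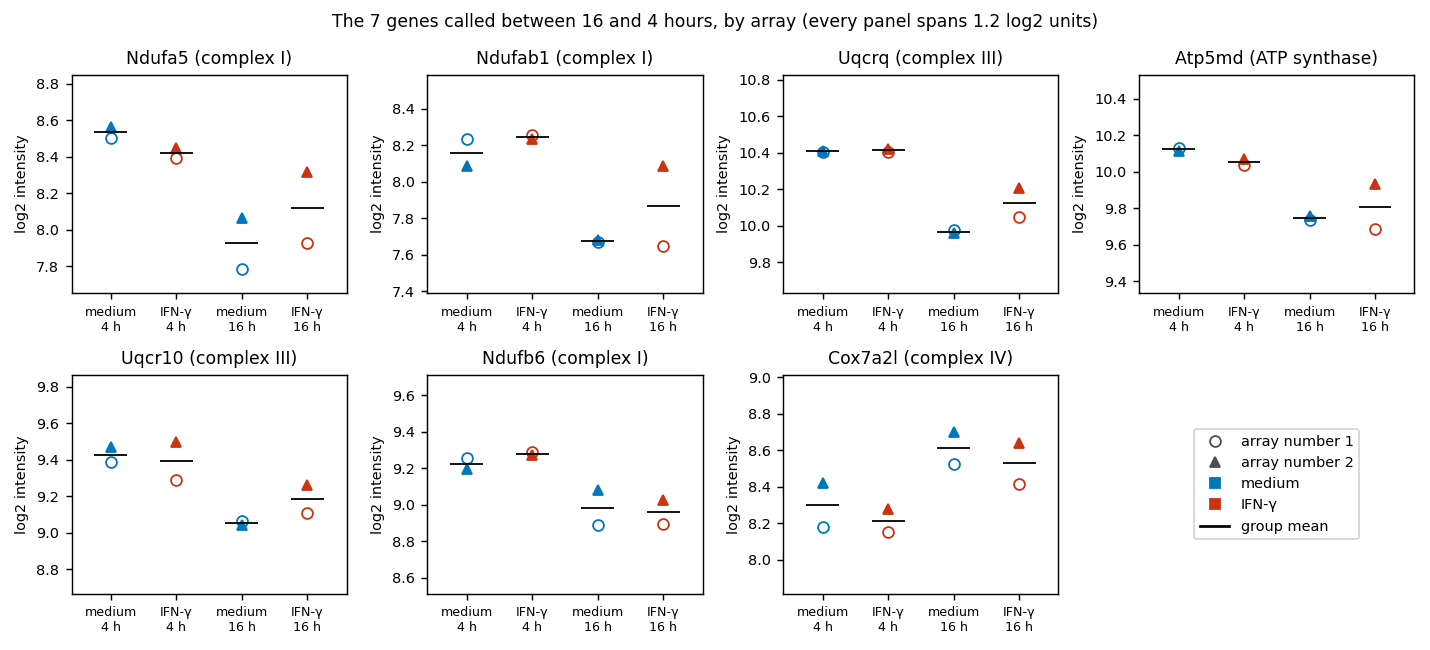
Log2 intensity of the 7 genes called between 16 and 4 hours on each of the 8 arrays (circles number 1, triangles number 2, blue medium, red IFN-γ, bars group means); every panel spans 1.2 log2 units. Group means are lower at 16 hours in 6 genes and higher in Cox7a2l, with single arrays of the times level in Ndufab1 and Cox7a2l, and array 1 of IFN-γ 16 h is below array 2 in all 7.

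In complex III, Uqcrq, a small membrane subunit, measured 10.40 and 10.41 in medium 4 h and 10.41 and 10.42 in IFN-γ 4 h, then 9.98 and 9.96 in medium 16 h and 10.05 and 10.21 in IFN-γ 16 h. Every 16-hour array was below every 4-hour array. It fell by 0.36 on the log2 scale (SE 0.07, limma adjusted p = 0.010), which on the linear scale means that it fell by 22.2%. Uqcr10, the other small subunit called, measured 9.39 and 9.47 in medium 4 h and 9.29 and 9.50 in IFN-γ 4 h, then 9.07 and 9.04 in medium 16 h and 9.11 and 9.26 in IFN-γ 16 h. Here too the times did not overlap, and it fell by 0.29 (SE 0.08, limma adjusted p = 0.0455).

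The rest of complex III lay mostly the same way. The core proteins Uqcrc1 and Uqcrc2 differed by -0.21 (SE 0.08, limma adjusted p = 0.106) and -0.20 (SE 0.08, adjusted p = 0.134). Uqcrb, a ubiquinone-binding subunit, differed by -0.32 (SE 0.15) and Uqcr11, a small subunit, by -0.18 (SE 0.08), while Uqcrh, the hinge protein for cytochrome c, differed by 0.09 (SE 0.07). None of these 5 passed the test, and with the block Uqcrc1 did (adjusted p = 0.0479). The median of the 7 genes was -0.21, and -0.11 under quantile normalization and -0.25 under median centring, with 6 of 7 below 0 in each. Cyc1, the cytochrome c1 subunit of the same complex whose symbol lies outside the rule, differed by -0.19 (SE 0.07, adjusted p = 0.133).

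In complex I, Ndufa5, a subunit of the peripheral arm, measured 8.50 and 8.57 in medium 4 h and 8.40 and 8.45 in IFN-γ 4 h, then 7.79 and 8.06 in medium 16 h and 7.93 and 8.32 in IFN-γ 16 h. The times did not overlap, though the arrays at 16 hours were spread widely. It fell by 0.46 (SE 0.11, limma adjusted p = 0.0225). Ndufab1, the mitochondrial acyl carrier protein, which also serves fatty acid and iron-sulfur cluster synthesis, measured 8.23 and 8.09 in medium 4 h and 8.26 and 8.23 in IFN-γ 4 h. It measured 7.67 and 7.68 in medium 16 h and 7.65 and 8.09 in IFN-γ 16 h. In IFN-γ 16 h its array 2 reached the level of the lowest 4-hour array, and it fell by 0.43 (SE 0.10, limma adjusted p = 0.0173). Ndufb6, a membrane arm subunit, measured 9.25 and 9.20 in medium 4 h and 9.29 and 9.27 in IFN-γ 4 h, then 8.89 and 9.08 in medium 16 h and 8.89 and 9.02 in IFN-γ 16 h. It fell by 0.28 (SE 0.08, limma adjusted p = 0.0394) with no overlap of the times.

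Most of complex I did not pass. Of its 31 genes 28 were not called (25 with the block, which adds Ndufv2, Ndufa9 and Ndufaf4, the last below the antisense level). Among those called in neither fit were the iron-sulfur subunit Ndufs1 at -0.26 (SE 0.13) and the assembly factor Ndufaf1 at -0.19 (SE 0.09). The median of the 31 was -0.06, but 0.02 under quantile normalization, so the direction of the complex as a whole depends on the scaling. That of complex II, -0.05 over 4 genes, and that of the ATP synthase, -0.07 over 14, likewise came to 0.0002 and 0.0084 there.

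In the ATP synthase, Atp5md, a small membrane subunit also known as DAPIT, measured 10.13 and 10.11 in medium 4 h and 10.03 and 10.07 in IFN-γ 4 h, then 9.74 and 9.76 in medium 16 h and 9.68 and 9.93 in IFN-γ 16 h. Every 16-hour array was below every 4-hour array, and it fell by 0.31 (SE 0.08, limma adjusted p = 0.0293). Atp5a1, the alpha subunit of the catalytic head, differed by -0.32 with a wider error (SE 0.10, limma adjusted p = 0.0753, or 0.0137 with the block). Atp5l differed by 0.07 and Atp5g1, which encodes subunit c of the rotor, by 0.13 (SE 0.10).

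In complex IV, Cox7a2l measured 8.18 and 8.42 in medium 4 h and 8.15 and 8.28 in IFN-γ 4 h, then 8.52 and 8.70 in medium 16 h and 8.42 and 8.64 in IFN-γ 16 h. Array 1 of IFN-γ 16 h stood level with array 2 of medium 4 h, and the other 16-hour arrays were above all 4-hour arrays. It rose by 0.31 (SE 0.09, limma adjusted p = 0.0489), against the direction of the other 6 genes called. Cox5b, a zinc-binding subunit, differed by -0.23 (SE 0.08, adjusted p = 0.0866, or 0.0316 with the block), while the restricted isoforms Cox6a2 and Cox8c differed by 0.20 (SE 0.07) and 0.19 (SE 0.07) and did not pass. Cox8c measured 7.63 and 7.76 in medium 4 h and 7.95 and 7.93 in medium 16 h, where it was higher on both arrays, and 7.66 and 7.77 in IFN-γ 4 h and 7.88 and 7.82 in IFN-γ 16 h. The median of the 15 genes was 0.05, and 0.04 and 0.02 under quantile normalization and median centring.

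Of the 7 genes called 6 have a RefSeq promoter, and 0 of these 6 hold the NRF1 or YY1 letters. Ndufb6 and Atp5md hold the GABPA letters, in Atp5md just after the start. The 250 bases before the start are shown for Ndufb6, which fell and has its match in capitals (first base at -232 from the start), at chr4:40279422-40279671, and for Cox7a2l, which rose and has none, at chr17:83514334-83514583, both on the minus strand of GRCm38.p6.
Ndufb6: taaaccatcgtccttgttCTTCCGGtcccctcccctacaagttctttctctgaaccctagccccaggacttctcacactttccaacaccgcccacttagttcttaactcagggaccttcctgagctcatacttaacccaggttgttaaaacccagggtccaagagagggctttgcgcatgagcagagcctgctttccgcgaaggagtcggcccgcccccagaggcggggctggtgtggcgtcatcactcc
Cox7a2l: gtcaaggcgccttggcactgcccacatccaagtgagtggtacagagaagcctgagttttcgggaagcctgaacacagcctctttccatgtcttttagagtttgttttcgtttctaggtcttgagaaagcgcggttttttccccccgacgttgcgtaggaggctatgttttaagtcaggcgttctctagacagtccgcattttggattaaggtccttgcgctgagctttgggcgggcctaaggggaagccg

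Taken within each treatment, 16 against 4 hours called 0 of 71 genes in medium (beside 4.65% of all genes) and 0 of 71 with IFN-γ (beside 2.62%). At an unadjusted p under 0.05 there were 8 in medium (11.3%, beside 17.5%) and 6 with IFN-γ (8.45%, beside 15.3%). The nearest in medium were Uqcrq, which differed by -0.44 (SE 0.11, limma adjusted p = 0.0539, blocked 0.0113), and Ndufa5, by -0.61 (SE 0.15, adjusted p = 0.0575, blocked 0.00494). With the array number as a block 5 genes were called lower in medium (7.04%, beside 9.76%), namely Uqcrq, Uqcr10, Atp5md, Ndufab1 and Ndufa5, and Cox7a2l higher (1.41%, beside 4.21%). With IFN-γ the block called Ndufv2, a core subunit of the NADH-oxidising module, lower (1.41%, beside 8.07%) and 0 higher (beside 3.38%). Ndufv2 measured 8.65 and 8.88 in IFN-γ 4 h and 8.16 and 8.65 in IFN-γ 16 h, so its array 2 at 16 hours stood level with array 1 at 4 hours. In the model over both treatments the block called 12 lower (16.9%, beside 15.8%) and 1 higher (beside 8.62%). It added Atp5a1, Uqcrc1, Cox5b, Ndufv2, Ndufa9 and Ndufaf4 to the lower calls. Of these, Ndufaf4 was above the antisense level on 0 of the 8 arrays, and its second probe set differed by 0.05. The time effect differed between the treatments in 0 of the 71 genes, by the same contrast as the difference between the IFN-γ effects.

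Beyond the calls, more of the 71 genes lay lower than higher at 16 hours. In medium both 16-hour arrays were below both 4-hour arrays in 28 genes (39.4%, beside 24.2% of all genes) and above them in 12 (16.9%, beside 29.8%). With IFN-γ they were below in 19 (26.8%, beside 19.9%) and above in 6 (8.45%, beside 20.8%). The group mean was lower at 16 hours under both treatments in 39 genes (54.9%, beside 32.3%). These shares are descriptions with no test. All genes are dimmer as a set, with 4825 of 8251 above the antisense level beside 60 of the 71. Among genes above that level, the mean in medium was lower at 16 hours in 44 of 60, beside 2623 of 4825. With IFN-γ it was lower in 35 of 60, beside 2465 of 4825. Overlap of arrays was not counted for genes above that level alone. The median log2 difference over both treatments was -0.07 for the 71 genes and 0.05 for all genes, and -0.08 and -0.02 among genes above the antisense level. Under quantile normalization the median of the 71 came to 0.02, so their common direction depends on the scaling. In bulk RNA, fewer cells of a type and less RNA per cell cannot be told apart. The macrophage markers rose over the same interval (10 of 12 called higher, 1 lower), 4 of 5 B cell markers were called higher, and 4 of 11 CD8+ dendritic cell and 2 of 4 erythroid markers lower. These stand beside 4.04% of all genes called higher and 9.24% lower. The other 2 erythroid markers were higher but not called, and of the 4 only Hba-a1 lay above the antisense level. Of 3 plasmacytoid dendritic cell markers 1 was called higher, and of 4 T cell, 3 NK cell and 6 neutrophil markers 0 were called. In medium the Actb end ratio went from 2.04 and 2.20 to 1.63 and 1.57, and that of Gapdh from 1.14 and 1.31 to 0.89 and 0.83. Their part in these differences was not tested.

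**Figure D4:**
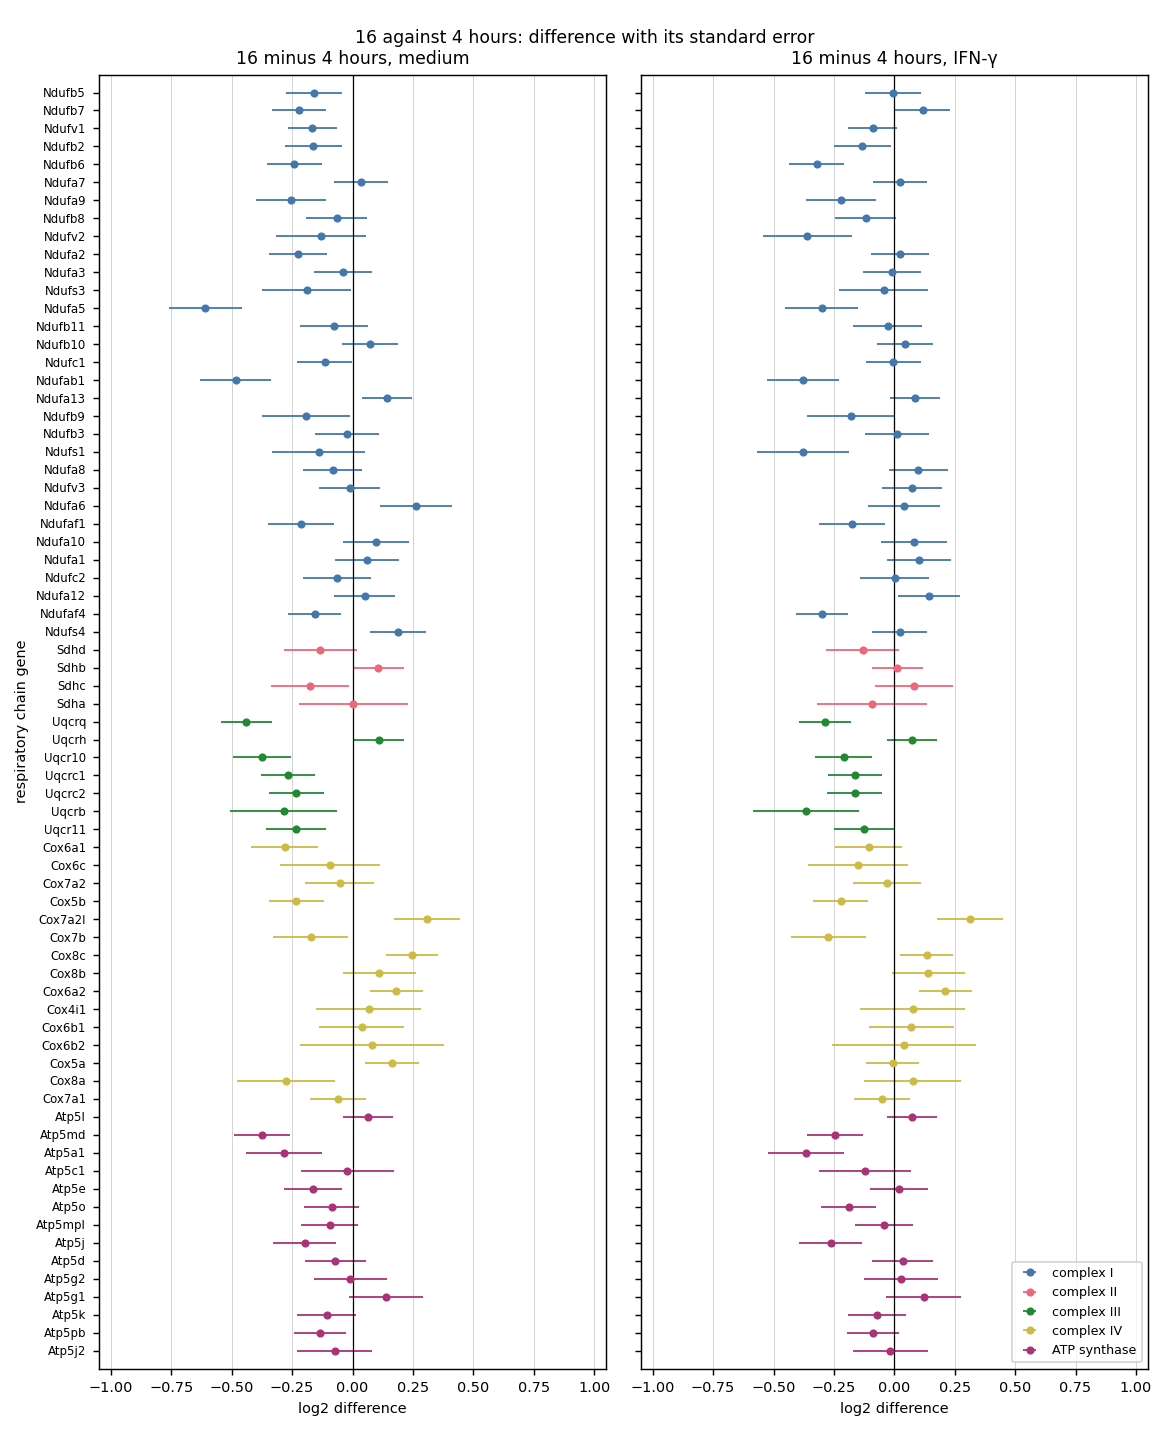
Log2 difference between 16 and 4 hours (points) with its standard error (lines) for each of the 71 genes, in medium on the left and with IFN-γ on the right, coloured by complex. Points lie between -0.61 and 0.31 in medium and between -0.38 and 0.31 with IFN-γ.

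Single arrays weighed on the counts. The median level of the 71 genes was 8.24 and 8.25 in medium 4 h, 8.24 and 8.28 in IFN-γ 4 h, 7.99 and 8.22 in medium 16 h, and 8.02 and 8.34 in IFN-γ 16 h. Array 1 was thus the lower at 16 hours under both treatments, and in IFN-γ 16 h 51 of 71 genes were higher on array 2, where 43.9% of all genes were. The 7 calls over both treatments became 13, all lower, without array 2 of IFN-γ 16 h, and 3 without array 1 of that group. They became 1 without array 1 or array 2 of medium 4 h or array 1 of medium 16 h, 3 without array 1 of IFN-γ 4 h and 2 without its array 2, and 6 without array 2 of medium 16 h. Without both 16-hour arrays numbered 1 there were 1 lower and 2 higher. In medium alone the calls went from 0 to 4 without array 1, and to 4 without array 2, of IFN-γ 16 h, which enter that comparison only through the shared estimate of spread. With IFN-γ alone they went from 0 to 2 without array 2 of IFN-γ 16 h.

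Other mitochondrial genes, from lists made for this description, were also followed over time. Of 21 measured genes of protein import and chaperones 10 were called lower at 16 hours and 0 higher, with a median of -0.30, beside 9.24% of all genes called lower. Hspd1 and Hspe1, the matrix chaperonin and its partner, fell by 1.11 and 0.58, Hspa9, the matrix Hsp70, by 0.83, and Timm8a1, a small chaperone of the intermembrane space, by 1.04. Of 61 mitochondrial ribosomal proteins 12 were lower and 0 higher, with a median of -0.20; Mrps28 fell by 0.62 and Mrpl13 by 0.67. These medians kept their sign under quantile normalization, at -0.28 and -0.18. With the block the lower calls were 14 and 23 (beside 15.8% of all genes), and 1 ribosomal protein gene, Mrpl49, was called higher. A difference between these lists and the chain was not tested.

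**Figure D5:**
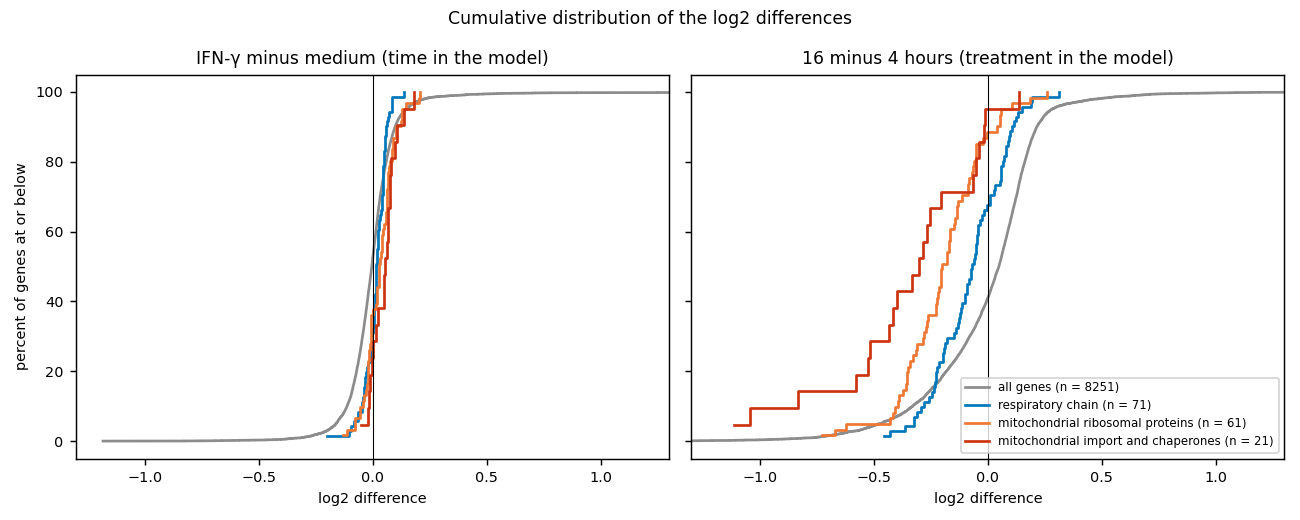
Cumulative share of genes at or below each log2 difference, for IFN-γ against medium (left) and 16 against 4 hours (right), each from the model with both factors; lines are all 8251 genes, the 71 respiratory chain genes, 61 mitochondrial ribosomal proteins and 21 import and chaperone genes. The time medians are 0.05, -0.07, -0.20 and -0.30.

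Genes that feed the chain or build it were mixed. Their counts, and those of the next paragraph, stand beside 9.24% of all genes called lower and 4.04% higher. With the block these shares were 15.8% and 8.62%. Of 15 electron carriers and other inner membrane oxidoreductases 4 were lower at 16 hours and 1 higher (6 and 1 with the block). Etfdh, which passes electrons from fatty acid oxidation to ubiquinone, fell by 0.59, Gpd2, the glycerol phosphate dehydrogenase, by 0.34, and Coq7, of ubiquinone synthesis, by 0.40. Sqor, which oxidises sulfide, rose by 0.44. Of 9 assembly factors Lrpprc, which stabilises mitochondrial messenger RNA, fell by 0.67 and Cox17, a copper chaperone of complex IV, by 0.56, while Surf1 rose by 0.29. With the block 3 assembly factors were lower and 1 higher. Of 18 genes of the TCA cycle and pyruvate entry 2 fell, Suclg2 by 0.27 and Pdhb by 0.35 (7 with the block). Of 16 regulators of mitochondrial biogenesis 1 fell, Myc by 0.68 (3 lower and 1 higher with the block), and of 6 antioxidants 0 were called.

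Of 13 fatty acid oxidation genes 2 rose, Cpt1a, which admits fatty acids to mitochondria, by 0.49 and Acaa2 by 0.35, and 1 fell, Acadm by 0.61. The block called 3 of these genes higher and 1 lower. Of 9 inhibitors and modifiers of respiration Pdk1, which restrains pyruvate entry, rose by 0.56, and Ldha and Acod1 fell by 0.57 and 0.67. There the block called 3 higher and 2 lower. Within the treatments, Acod1 differed by -0.97 in medium (limma adjusted p = 0.0278) and by -0.37 with IFN-γ (adjusted p = 0.464). The difference between these time effects did not pass the test. For IFN-γ, 0 genes of all these lists were called at 4 or at 16 hours (beside 0.279% and 0.303% of all genes). Acod1, which makes itaconate, an inhibitor of complex II, measured 6.54 and 6.96 in medium 16 h and 7.57 and 8.06 in IFN-γ 16 h. Its groups did not overlap there, and the difference was 1.07 (SE 0.20, limma adjusted p = 0.0944, blocked 0.000702). At 4 hours it was 0.46 (SE 0.20, blocked adjusted p = 0.0719) and passed in neither fit. Nos2, whose product nitric oxide inhibits complex IV, lay between 4.36 and 5.10, below the controls on every array, and Cycs, which encodes cytochrome c, had a mean of 5.62, at their level.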

How the data were processed

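The authors deposited 1 intensity value per probe set and array on a linear scale, made with RMA per the submitters' processing notes; its version and settings are not given in the sources used here. Log2 was taken with no pseudocount and no further normalization. Of the probe sets, 66 array controls were left out, which leaves 12422, of which 10833 had 1 gene symbol in the platform annotation, 396 several and 1193 none listed. Differences were tested with limma 3.58.1 in R 4.3.3 (group means over all 8 arrays, additive models for the joint time and IFN-γ effects, two-sided, Benjamini-Hochberg over 12422 probe sets), tested on simulated data. Percentages of all genes use the brightest probe set of each of 8251 genes.

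The array numbers pair the arrays by the data, not by a label: the correlations between groups of the difference of array 1 and array 2 were 0.367 to 0.740 in all 6 pairs of groups. The block result is therefore given where it changes a call. These correlations were 0.587 between the 4-hour groups, 0.740 between the 16-hour groups and 0.367 to 0.480 between groups of different times. The block fits 1 shift for both times, so the data back it less in the comparisons over time. The genes, lists and tests were chosen with earlier results of these data known. Values on each array are given for genes called in any comparison without the block, the smallest p of each complex at 4 hours, 16 hours and over time in medium, the signal extremes of each complex and tissue-restricted isoforms, not all of which is repeated. From each list at most 4 called genes are named. Alternatives were quantile normalization, median centring, no dimmest 40%, a trended robust prior, the block, an adjusted p under 0.01, the mean of a gene's probe sets, only the 4 arrays compared, each array left out, and, added after seeing the data, both 16-hour arrays numbered 1 left out.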

Additional observations from a re-analysis of the deposited data

How the results depend on the processing

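The 4 IFN-γ comparisons called 0 genes under every alternative run, out of 71, or of 63 where the dimmest 40% of probe sets were left out. For time over both treatments (7 called), the replicate block gave 13, an adjusted p under 0.01 gave 0, leaving out both 16-hour arrays numbered 1 gave 3, and leaving out each array in turn gave 1 to 13. For time in medium (0 called), median centring gave 1, a trended and robust prior 1, a filter on the dimmest 40% 2, the replicate block 6, the mean of all probe sets of a gene 1, a fit of only the 4 arrays compared 2, and leaving out each array 0 to 4. For time with IFN-γ (0 called), the replicate block gave 1 and leaving out each array 0 to 2. With 1 array of a group gone, the remaining one borrows its spread from the rest. Of 16 alternatives for each gene called over time, Uqcrq was called in 14, Ndufab1 in 11, Ndufa5 in 9, Uqcr10 and Cox7a2l in 7, and Atp5md and Ndufb6 in 6, each with its sign kept. The median of the 71 genes over time ranged from -0.11 to 0.02. The cause of these changes was not tested. Genes at or below the antisense level, 11 of 71, limit what can be seen of their own changes.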

Other observations

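Probe sets that name a respiratory chain gene together with a pseudogene or close copy lay outside the rule and are given here as values. The probe set of Ndufab1 and Ndufab1-ps differed by -0.40 between 16 and 4 hours over both treatments (limma adjusted p = 0.0260), as the probe set of Ndufab1 alone fell. For Ndufs6 and Ndufs6b, 1 probe set fell by 0.34 (adjusted p = 0.0281) and the other differed by -0.16 (adjusted p = 0.298). The 2 probe sets of Cox7c and Gm12338 had means of 11.24 and 10.92 and differed by -0.10 and 0.04. That of Atp5md and Gm35857 had a mean of 2.77, below the antisense controls, and differed by -0.15 (limma adjusted p = 0.267). The call of Atp5md therefore rests on the probe set annotated to it alone, and specificity of its probes was not tested. Those of Atp5c1, Ndufb4, Ndufa11 and Ndufs5 with their copies differed by -0.02, 0.08, -0.16 and -0.06 and were not called. For IFN-γ none of these probe sets was called at 4 or 16 hours. The second probe set of Ndufb6 had a mean of 1.99, below the antisense controls, and differed by 0.01 over time, so the call of Ndufb6 rests on its brightest probe set.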
